A study of Homo sapiens with 24 samples.

Results

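The 9 genes described here encode enzymes and a transporter of the glutathione and thioredoxin systems, with heme oxygenase 1, that are known as targets of the transcription factor NRF2. They were chosen by name, with earlier results of these data known: GCLC, GCLM, GSR, SLC7A11, TXN, TXNRD1, SRXN1, PRDX1 and HMOX1. Each was found as the 1 row of the deposited table whose Ensembl gene ID carries that symbol in GENCODE release 29. The table held 57979 gene rows, of which 17252 had a mean of at least 0.5 FPKM over all libraries and were tested. All 9 genes were among those tested. FPKM is the number of sequenced fragments scaled to transcript length and library size. Levels of different genes can be compared on this scale only where each row measures its own transcript, which is uncertain here, as described below.

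The cells were Huh7, a human hepatoma line, either ABHD6 knockout (KO) or wild type (WT). ABHD6 is a hydrolase of monoacylglycerols and other lipids. Each genotype was sampled at 0 h in basal medium, and at 24 h and 48 h of exposure to palmitic acid, the main saturated fatty acid of plasma, at 800 µM. This gave 6 groups of 4 libraries: KO and WT at 0 h, KO and WT at 24 h, KO and WT at 48 h. The libraries of a group carry the numbers 0 to 3, and values below are listed in that order. All 6 groups shared the cell line and its DMEM-based culture medium, and the labels name no allele, guide or clone of the knockout. No labelled group was kept in basal medium until 24 h or 48 h, so palmitic acid and time in culture cannot be told apart. Whether the 4 libraries of each group were grown as separate cultures is not stated, so the p-values below rest on a spread that may be technical. The growth and treatment texts describe a harvest on day 1, and the later times come from the titles and the design text.

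The FPKM scale rested on 402000 to 710000 fragments per library, estimated from the step that 1 fragment makes in FPKM. One fragment on a 2 kb transcript was therefore worth 0.704 to 1.24 FPKM. These totals need not be all the fragments sequenced, and sequencing depth was not examined. Rows of the antisense gene type took 57.2% of summed FPKM in KO and 57.0% in WT at 0 h. The shares were 47.1% in KO and 47.0% in WT at 24 h, and 44.6% in KO and 45.9% in WT at 48 h. Among 1961 pairs of a tested antisense row and a protein-coding gene with overlapping exons, the antisense row had the higher mean in 1306 (66.6%). How the counting used strand is not stated. A row's FPKM may therefore not measure the transcript of its own strand, which was not tested. Of the 13 mitochondrially encoded genes, 4 had zeros shared by whole groups. MT-CO1 read 0 throughout both later times in KO and WT cells. MT-CO3, MT-ATP6 and MT-ATP8 did so in the 4 WT libraries at 48 h. In every other library these 4 genes were above 0. A 0 in this table can therefore be a missing estimate, and below it is called listed at 0. The 9 mitochondrially encoded genes never listed at 0 took 3.06% of summed FPKM in KO and 2.71% in WT at 0 h. They took 7.28% in KO and 7.79% in WT at 24 h, and 8.01% in KO and 11.1% in WT at 48 h. At 0 h MT-CO3, MT-ND3 and MT-ND5, named after their values were seen, were called higher in KO than in WT (limma adjusted p between 0.00277 and 0.00700). These shares, and the number of fragments, moved with time in both genotypes, and their part in the results below was not tested. All 10 hepatocyte and hepatoma markers, ALB and AFP among them, were above 0 in all 24 libraries. ABHD6 was above 0 in 7 libraries, 4 of them KO and 3 WT, at no more than 1.16 FPKM, so its level could not check the genotype labels. Of the 6 stellate or fibroblast markers DCN was listed at 0 in all 24 libraries and the others in 15 to 23. Their sum was 0 to 9.80 FPKM in the KO groups and 0 to 10.1 FPKM in the WT groups. Of the 4 endothelial markers CDH5, VWF and KDR were listed at 0 in all 24 libraries and PECAM1 in none, with a mean of 5.28 FPKM. Of the 4 biliary markers KRT7 was listed at 0 in all 24 libraries, KRT19 in 18 and EPCAM in 3. SOX9 averaged 18.6 FPKM and was never at 0. Among 5 immune markers LYZ averaged 182.7 FPKM with no library at 0, and CD68 8.29 FPKM with 3 at 0. CD14, CD3E and PTPRC were listed at 0 in 10, 20 and 21 libraries. The immune sum was 150 to 219 FPKM in KO and 83.7 to 164 FPKM in WT at 0 h. It was 150 to 213 FPKM in KO and 149 to 194 FPKM in WT at 24 h, and 229 to 338 FPKM in KO and 178 to 310 FPKM in WT at 48 h. The part of these markers in the results was not tested.

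NRF2, encoded by NFE2L2, is held at a low level by KEAP1, which presents it to a CUL3 ubiquitin ligase for degradation. Oxidants and electrophiles modify cysteines of KEAP1, NRF2 then accumulates, pairs with a small MAF protein and binds antioxidant response elements in its target genes. The targets rebuild glutathione (cystine uptake by SLC7A11, glutamate-cysteine ligase from GCLC and GCLM, reduction by GSR), carry electrons from NADPH to peroxiredoxins (TXNRD1, TXN, PRDX1, with SRXN1 as the repair enzyme) and break down heme (HMOX1). In liver this system is known for protection against oxidants, reactive drug metabolites and lipid overload.

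The core of the antioxidant response element, TGAC and GCA with 3 bases of any kind between them, was searched on both strands in the RefSeq promoter windows, which run from 250 bases before to 50 bases after a gene's start on GRCh38.p14. No other motif was searched. Windows were at hand for 5 of the 9 genes, 6 windows in all, and 2 of the 6 held the motif, against 1118 of all 35116 windows (3.18%). The matches lie in windows of GCLM (chr1:93909431-93909490, minus strand) and TXNRD1 (chr12:104286904-104286963, plus strand). They are shown because these genes encode a subunit of the first enzyme of glutathione synthesis and the reductase of thioredoxin. Each stretch is written 5′ to 3′ on the gene's strand, with capitals for the match, which reads TGC, 3 bases and GTCA there because the motif sits on the opposite strand.
GCLM: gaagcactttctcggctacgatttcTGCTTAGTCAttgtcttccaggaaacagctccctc
TXNRD1: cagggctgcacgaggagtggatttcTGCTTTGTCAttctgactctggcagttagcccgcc
The first base of the match lies at position -35 from the GCLM start and at -103 from one of the TXNRD1 starts. The windows of GCLC, TXN, SRXN1 and the other TXNRD1 start did not hold these letters, which says nothing of sites elsewhere in those genes.

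Between palmitic acid and basal medium, the genes that passed the test all rose. Testing was done with limma, a linear model over all tested genes with Benjamini-Hochberg adjustment and a threshold of 0.05. In KO cells it called 2 of the 9 higher at 24 h (GCLC and TXNRD1), where 2.13% of all tested genes were called higher. It called 4 of the 9 higher at 48 h (GCLC, SLC7A11, TXN and TXNRD1), where 3.40% of all tested genes were. In WT cells it called 4 higher at 24 h (GCLC, SLC7A11, TXNRD1 and SRXN1), against 1.46% of all tested genes, and 3 higher at 48 h (SLC7A11, TXN and SRXN1), against 2.57%. None of the 9 was called lower, where 3.51% and 6.42% of all tested genes were at 24 h and 48 h in KO cells, and 2.60% and 4.22% in WT cells. Among 9303 tested genes with no exon on the other strand, which leaves out GCLC, SLC7A11 and PRDX1, fewer were called lower than higher. In KO cells 61 were lower and 138 higher at 24 h, and 123 and 265 at 48 h. In WT cells 31 were lower and 76 higher at 24 h, and 68 and 166 at 48 h. Because the 9 genes were chosen with earlier results of these data known, the counts of the 9 beside the shares describe the set and do not test it. The median log2 fold change of the 9 was 0.80 at 24 h and 1.28 at 48 h in KO cells, and 0.99 at 24 h and 0.95 at 48 h in WT cells, where the median over all tested genes was 0 each time. Over the genes with no exon on the other strand it was 0.07 and 0.15 in KO cells, and 0.07 and 0.12 in WT cells. In a fit of only the groups compared, none of the 9 was called in WT cells by limma at either time, with 5 of the 9 at 24 h and 6 at 48 h at an unadjusted p under 0.05 (14.4% and 17.8% of all tested genes). In KO cells that fit kept every call of the 9 and at 48 h added SRXN1 as higher and HMOX1 as lower. There it called 479 of all 17252 tested genes higher and 960 lower. In bulk RNA, fewer cells of a type and less RNA per cell cannot be told apart.

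**Figure D1:**
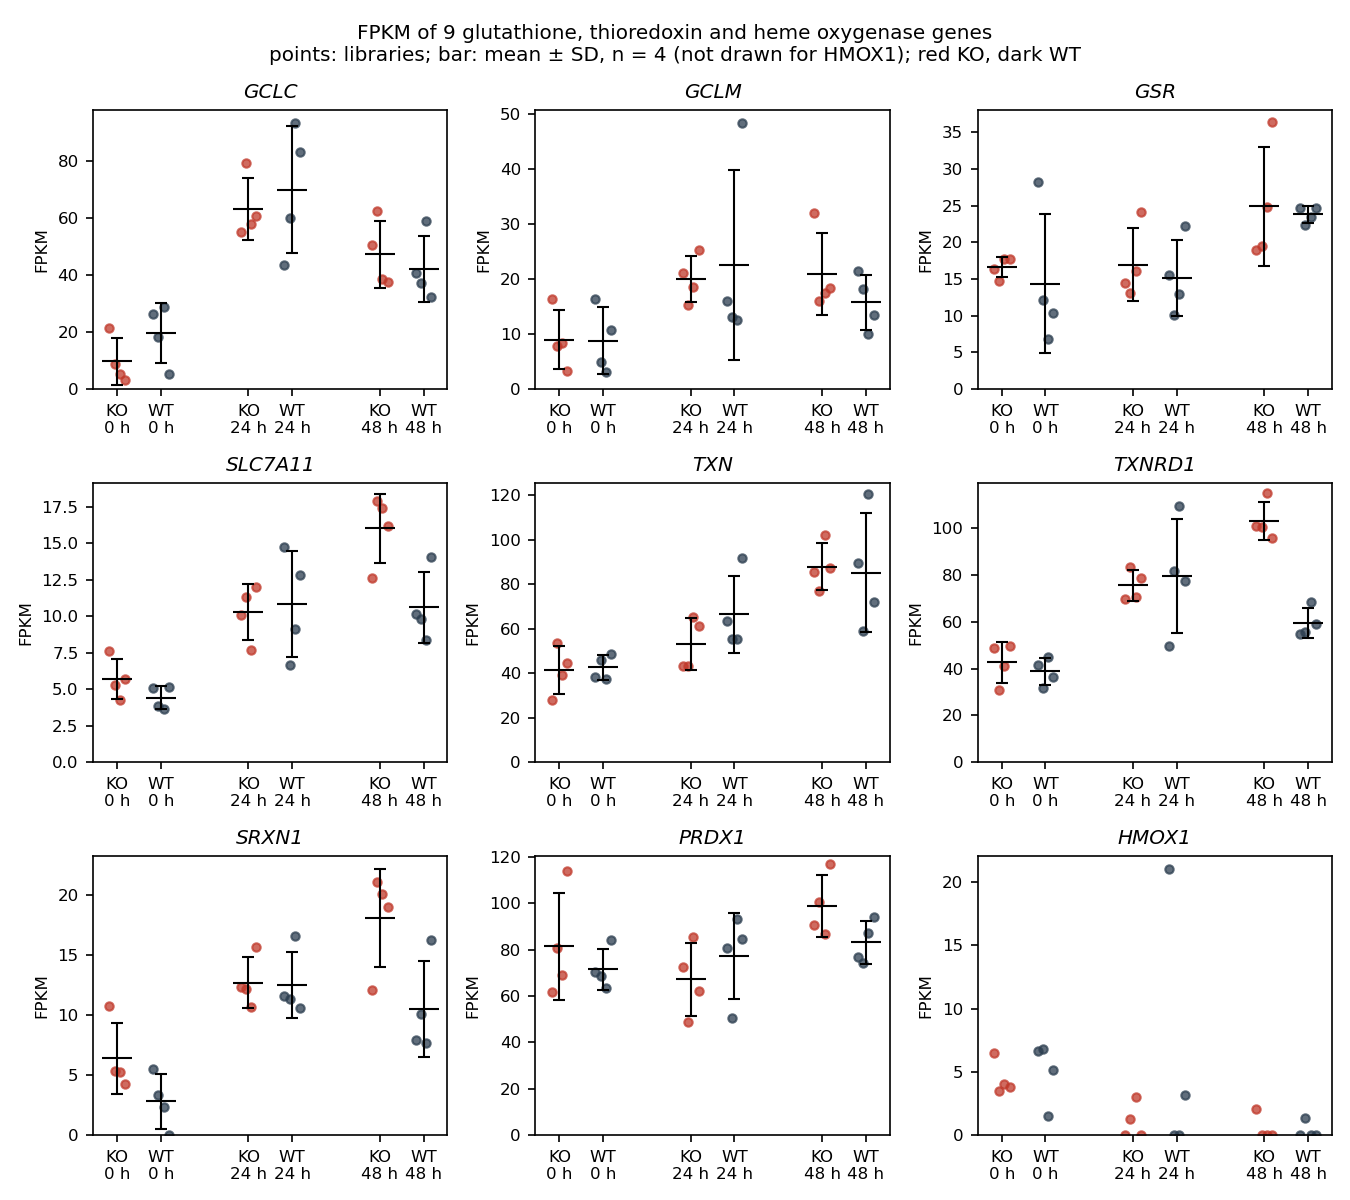
FPKM (y axis, from 0) of the 9 genes in each library (points), by genotype and time (x axis, KO left of WT at each time), with the mean and SD of 4 libraries as bars; no bar is drawn for HMOX1, which is listed at 0 in some libraries. GCLC sits at 3.31 to 28.7 FPKM in the 0 h libraries and at 32.2 to 93.1 FPKM in the later ones, and TXNRD1 at 48 h sits at 96.1 to 115 FPKM in KO, above 55.0 to 68.7 FPKM in WT.

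GCLC encodes the catalytic subunit of glutamate-cysteine ligase, the rate-limiting enzyme of glutathione synthesis (ENSG00000001084.10, GRCh38 chromosome 6, 53497341 to 53616970, minus strand). In KO cells GCLC had 21.6, 8.82, 5.45 and 3.31 FPKM at 0 h, 55.0, 79.0, 57.7 and 60.6 FPKM at 24 h, and 50.6, 62.4, 38.6 and 37.5 FPKM at 48 h. In WT cells GCLC had 26.2, 18.3, 28.7 and 5.25 FPKM at 0 h, 43.6, 60.0, 93.1 and 82.9 FPKM at 24 h, and 40.8, 37.1, 58.7 and 32.2 FPKM at 48 h. In both genotypes every library with palmitic acid lay above every 0 h library of that genotype, and the 0 h libraries spread widely. This was the largest log2 fold change among the 9 genes in KO cells, at 2.93 ± 0.46 (SE; limma adjusted p = 0.000236) at 24 h and 2.50 ± 0.46 (adjusted p = 0.000629) at 48 h. In WT cells GCLC rose by 1.99 ± 0.46 at 24 h (limma adjusted p = 0.0130). At 48 h the WT difference was 1.29 ± 0.46 and was not called (limma adjusted p = 0.102). The WT call at 24 h was lost without library 2 of WT at 24 h (1.83, adjusted p = 0.0502) and without library 3 (1.89, adjusted p = 0.05). Over the alternatives tried, that adjusted p ran between 0.00724 and 0.149.

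GCLC rests on 12.7 to 179 estimated fragments per library, as group medians on its longest transcript, which is an upper figure. An antisense gene, AL033397.2, overlaps its exons by 7 bases on the other strand. AL033397.2 had 0, 5.57, 0 and 0 FPKM in KO cells at 0 h, 11.9, 5.36, 4.93 and 10.8 FPKM at 24 h, and 0 in all 4 libraries at 48 h. In WT cells it was listed at 0 in every library except library 1 at 24 h, with 10.6 FPKM. A 0 can be a missing estimate here too, and the part of this row in the GCLC values was not tested.

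GCLM, the modifier subunit that raises the ligase's affinity for glutamate, lies on chromosome 1 (ENSG00000023909.9, 93885205 to 93909456, minus strand) and overlaps no exon of the other strand. In KO cells GCLM had 16.3, 7.82, 8.31 and 3.39 FPKM at 0 h, 21.0, 15.2, 18.6 and 25.3 FPKM at 24 h, and 32.0, 16.0, 17.5 and 18.4 FPKM at 48 h. In WT cells GCLM had 16.4, 4.95, 3.04 and 10.7 FPKM at 0 h, 16.1, 13.03, 12.6 and 48.3 FPKM at 24 h, and 21.4, 18.2, 10.1 and 13.4 FPKM at 48 h. The groups overlapped in all 4 comparisons with 0 h, since library 0 of each genotype at 0 h lay within the range of the later ones. The log2 differences were of similar size throughout, at 1.28 and 1.31 (SE 0.49) in KO cells and 1.32 and 1.01 (SE 0.49) in WT cells at 24 h and 48 h, and none passed the threshold (limma adjusted p between 0.102 and 0.271). Without library 0 of KO at 0 h, the KO difference at 48 h was 1.65 and passed (limma adjusted p = 0.0455, within a range of 0.0455 to 0.296 over the alternatives).

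SLC7A11 is the cystine and glutamate exchanger that brings in the cystine from which glutathione is made (ENSG00000151012, chromosome 4, 138164097 to 138242349, minus strand). In KO cells SLC7A11 had 7.59, 5.30, 4.28 and 5.67 FPKM at 0 h, 10.1, 11.3, 7.66 and 12.0 FPKM at 24 h, and 12.6, 17.9, 17.4 and 16.1 FPKM at 48 h. In WT cells SLC7A11 had 5.06, 3.83, 3.65 and 5.14 FPKM at 0 h, 14.7, 6.62, 9.14 and 12.8 FPKM at 24 h, and 10.1, 9.80, 8.39 and 14.1 FPKM at 48 h. In both genotypes the libraries with palmitic acid lay above those at 0 h without overlap, and the means in KO cells stood in the order of the times, at 5.71 ± 1.38, 10.3 ± 1.91 and 16.0 ± 2.36 FPKM (SD, n = 4 each). SLC7A11 rose in KO cells at 48 h by 1.42 ± 0.30 (log2, SE; limma adjusted p = 0.00260), and the KO difference of 0.80 ± 0.30 at 24 h was not called (adjusted p = 0.135). In WT cells SLC7A11 rose by 1.16 ± 0.30 at 24 h (limma adjusted p = 0.0296) and by 1.16 ± 0.30 at 48 h (adjusted p = 0.0196). The WT call at 24 h was lost when library 1 or 2 of WT at 0 h, or library 0 or 3 of WT at 24 h, was left out (log2 0.99 to 1.10, adjusted p between 0.0599 and 0.0888, in a range of 0.0103 to 0.136 over the alternatives). The WT call at 48 h was lost without library 3 of WT at 48 h (1.02, adjusted p = 0.0602, the highest of a range from 0.0122).

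Exons of SLC7A11 overlap those of SLC7A11-AS1, a transcript of the other strand, over 865 bases, which is 8.97% of the exonic length of SLC7A11. That row averaged 1249 FPKM, 129.7 times the mean of SLC7A11. The library kit keeps strand, but how the counting used it is not stated. Fragments of the shared stretch therefore cannot be assigned to one gene with certainty. The doubt about strand given above holds for the rest of the row too. SLC7A11-AS1 averaged 1573 FPKM in KO and 1133 FPKM in WT at 0 h, 1269 FPKM in KO and 1127 FPKM in WT at 24 h, and 1240 FPKM in KO and 1154 FPKM in WT at 48 h. Its log2 fold change in KO cells at 48 h was -0.34 ± 0.10 (limma adjusted p = 0.0303) and turned to 0.16 (adjusted p = 0.480) under quantile normalization, with a range of 0.00188 to 0.480 over the alternatives.

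GSR, which uses NADPH to reduce oxidized glutathione, lies on chromosome 8 (ENSG00000104687.12, 30678061 to 30727999, minus strand). In KO cells GSR had 16.3, 14.8, 17.7 and 17.7 FPKM at 0 h, 14.4, 13.1, 16.1 and 24.2 FPKM at 24 h, and 18.9, 19.4, 24.7 and 36.4 FPKM at 48 h. In WT cells GSR had 28.2, 12.2, 6.83 and 10.3 FPKM at 0 h, 15.5, 10.1, 12.98 and 22.2 FPKM at 24 h, and 24.7, 22.4, 23.4 and 24.7 FPKM at 48 h. The 4 KO libraries at 48 h all lay above the 4 at 0 h, whereas library 0 of WT at 0 h exceeded every other WT library. The log2 differences at 48 h, 0.52 ± 0.34 in KO cells (limma adjusted p = 0.404) and 0.90 ± 0.34 in WT cells (adjusted p = 0.126), were not called. Without library 0 of WT at 0 h the WT value was 1.28 and passed (limma adjusted p = 0.0125, in a range of 0.0125 to 0.332).

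TXNRD1 is the cytosolic selenoenzyme that passes electrons from NADPH to thioredoxin (ENSG00000198431, chromosome 12, 104215779 to 104350305, plus strand). It has the most fragments behind it of the 9 genes, 73.3 to 297 per library as group medians, and overlaps no exon of the other strand. In KO cells TXNRD1 had 49.0, 31.1, 41.2 and 49.5 FPKM at 0 h, 69.7, 83.7, 70.5 and 78.6 FPKM at 24 h, and 101.3, 100.6, 115 and 96.1 FPKM at 48 h. In WT cells TXNRD1 had 41.7, 31.9, 45.1 and 36.6 FPKM at 0 h, 49.7, 81.9, 109.6 and 77.6 FPKM at 24 h, and 55.0, 55.7, 68.7 and 59.3 FPKM at 48 h. The KO groups stood apart at all 3 times, each later group above the earlier one. In WT cells both later groups lay above 0 h and overlapped each other, with a higher mean at 24 h (79.7 ± 24.5 FPKM, SD, n = 4) than at 48 h (59.7 ± 6.33 FPKM).

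TXNRD1 rose in KO cells by 0.84 ± 0.20 at 24 h (log2, SE; limma adjusted p = 0.0137) and by 1.28 ± 0.20 at 48 h (adjusted p = 0.000119). In WT cells TXNRD1 rose by 0.99 ± 0.20 at 24 h (limma adjusted p = 0.00513), and the difference of 0.62 ± 0.20 at 48 h was not called (adjusted p = 0.0696). The KO call at 24 h was lost without the variance trend (adjusted p = 0.0595, the highest of a range from 0.00234). The WT value at 48 h passed with a floor of 2 FPKM (adjusted p = 0.0476), with median-of-ratios rescaling (0.74, adjusted p = 0.0195) and with quantile normalization (0.81, adjusted p = 0.0123), in a range of 0.0123 to 0.181.

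TXN, thioredoxin itself, reduces disulfides in peroxiredoxins and many other proteins (ENSG00000136810, chromosome 9, 110243811 to 110256640, minus strand). In KO cells TXN had 27.9, 53.5, 39.3 and 44.7 FPKM at 0 h, 43.1, 43.1, 65.2 and 61.4 FPKM at 24 h, and 85.4, 77.1, 102.1 and 87.5 FPKM at 48 h. In WT cells TXN had 38.4, 45.8, 37.6 and 48.7 FPKM at 0 h, 63.6, 55.5, 55.4 and 91.9 FPKM at 24 h, and 89.4, 58.9, 121 and 71.8 FPKM at 48 h. At 48 h all libraries of both genotypes lay above their 0 h libraries, and at 24 h this held in WT cells but not in KO cells. TXN rose at 48 h by 1.11 ± 0.24 in KO cells (log2, SE; limma adjusted p = 0.00272) and by 0.95 ± 0.24 in WT cells (adjusted p = 0.0153). The differences at 24 h, 0.37 in KO cells (limma adjusted p = 0.448) and 0.61 in WT cells (adjusted p = 0.179), were not called. The WT call at 48 h was lost without library 2 of that group (0.76, adjusted p = 0.0585) and without the variance trend (adjusted p = 0.0535), in a range of 0.00412 to 0.0745.

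SRXN1 encodes sulfiredoxin, which restores peroxiredoxins whose cysteine has been overoxidized (ENSG00000271303.1, chromosome 20, 646615 to 653370, minus strand). In KO cells SRXN1 had 10.7, 5.34, 5.27 and 4.23 FPKM at 0 h, 12.3, 12.2, 10.6 and 15.7 FPKM at 24 h, and 12.1, 21.1, 20.1 and 19.0 FPKM at 48 h. In WT cells SRXN1 had 5.46, 3.37, 2.37 and 0.0044 FPKM at 0 h, 11.6, 11.4, 16.6 and 10.6 FPKM at 24 h, and 7.90, 10.1, 7.71 and 16.2 FPKM at 48 h. In WT cells both later groups lay above 0 h, and in KO cells only the group at 48 h did so, since library 0 at 0 h (10.73 FPKM) exceeded the lowest library at 24 h (10.64 FPKM). SRXN1 rose in WT cells by 2.42 ± 0.52 at 24 h (log2, SE; limma adjusted p = 0.00670) and by 2.13 ± 0.52 at 48 h (adjusted p = 0.0123). In KO cells the differences of 1.01 ± 0.52 at 24 h (limma adjusted p = 0.317) and 1.48 ± 0.52 at 48 h (adjusted p = 0.0730) were not called.

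The size of the WT response of SRXN1 rested on 1 library and on a second gene model. AL121758.1, a protein-coding model of the same strand, shares 2292 exonic bases with SRXN1, which is 85.0% of the exonic length of SRXN1. In library 3 of WT at 0 h, AL121758.1 had 5.09 FPKM and SRXN1 0.0044 FPKM, while AL121758.1 had at most 0.267 FPKM in the other 23 libraries. With the rows summed, that library had 5.10 FPKM, within the 2.41 to 5.47 FPKM of its group. The summed rows averaged 6.40 ± 2.92 FPKM at 0 h, 12.7 ± 2.12 FPKM at 24 h and 18.2 ± 4.08 FPKM at 48 h in KO cells, and 4.09 ± 1.45, 12.6 ± 2.75 and 10.5 ± 3.99 FPKM in WT cells (SD, n = 4 each). In KO cells at 48 h the SRXN1 row alone passed with a constant of 1 FPKM (limma adjusted p = 0.0344), median-of-ratios rescaling (adjusted p = 0.0425), quantile normalization (adjusted p = 0.0319) and a fit of only the groups compared (adjusted p = 0.0337). On the sum, an alternative chosen after seeing the data, it was also called (1.49 ± 0.34, limma adjusted p = 0.00500, in a range of 0.00500 to 0.239 over the alternatives) and the KO value at 24 h was 1.01 (adjusted p = 0.0909, the lowest of its range up to 0.512). The WT rises were smaller but still called, at 1.55 (limma adjusted p = 0.00875, in a range of 0.00236 to 0.203) at 24 h and 1.26 (adjusted p = 0.0249, in a range of 0.00350 to 0.210) at 48 h. Leaving library 3 of WT at 0 h out instead gave 1.67 (limma adjusted p = 0.00961) at 24 h and 1.38 (adjusted p = 0.0233) at 48 h.

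**Figure D2:**
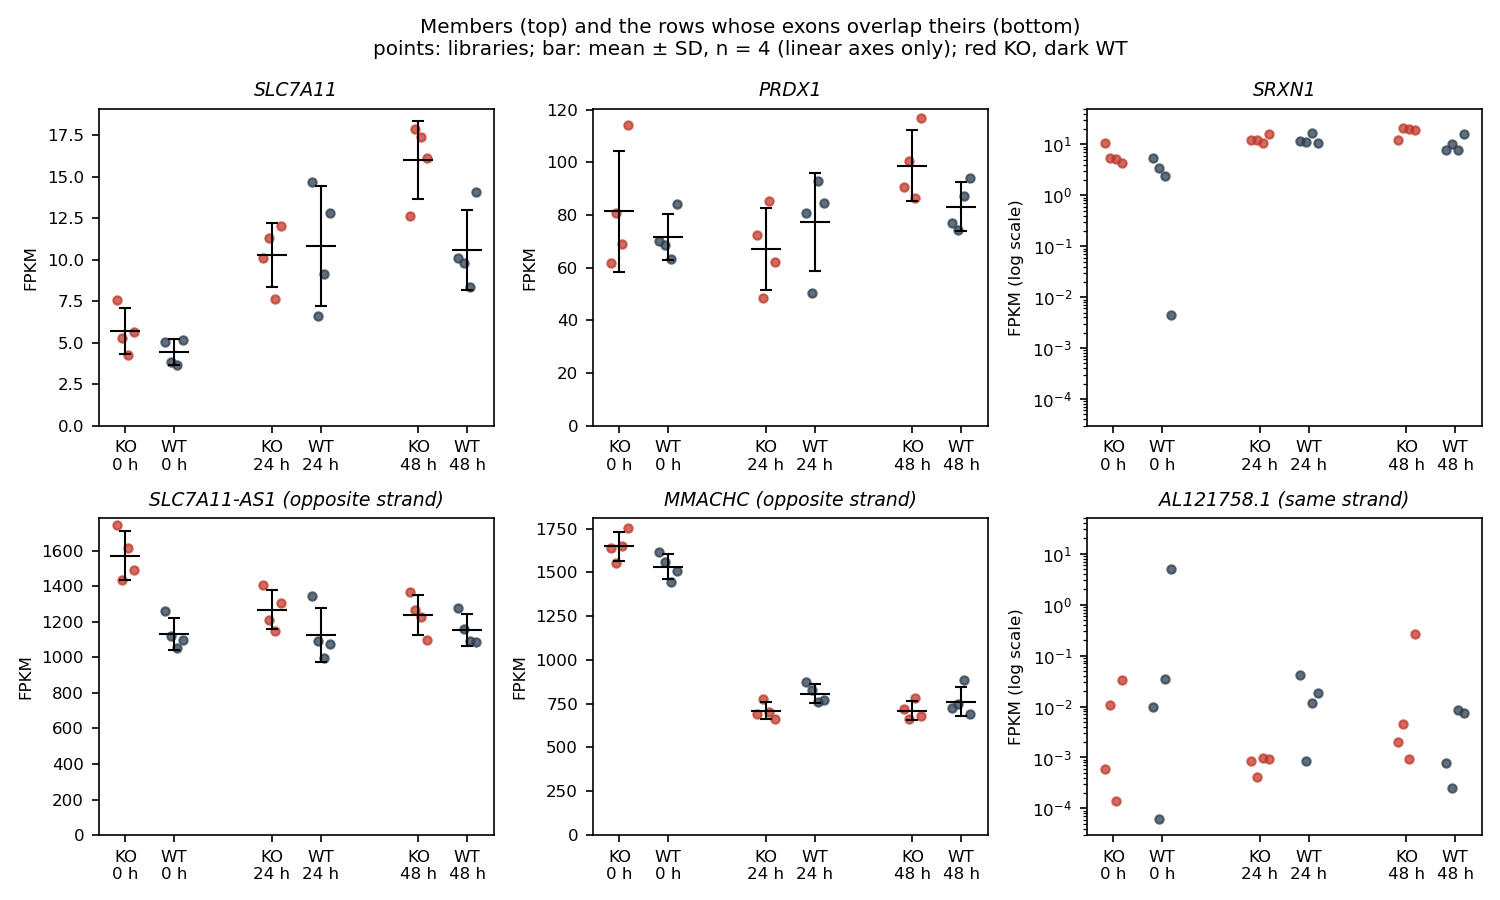
FPKM by library (points) for SLC7A11, PRDX1 and SRXN1 (top) and for the rows whose exons overlap theirs (bottom), by genotype and time (KO left of WT); bars are the mean and SD of 4 libraries on the linear axes, and both SRXN1 panels have a log axis. SLC7A11-AS1 and MMACHC lie far above the genes they overlap, and AL121758.1 is above 1 FPKM in 1 library, WT at 0 h, where SRXN1 is at 0.0044 FPKM.

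PRDX1, a cytosolic peroxiredoxin that reduces hydrogen peroxide with electrons from thioredoxin, had the highest mean level of the 9 genes over all libraries, 79.9 FPKM (ENSG00000117450, chromosome 1, 45511036 to 45523047, minus strand). In KO cells PRDX1 had 61.8, 80.7, 68.9 and 114 FPKM at 0 h, 72.4, 48.6, 85.4 and 62.1 FPKM at 24 h, and 90.8, 100.7, 86.6 and 117 FPKM at 48 h. In WT cells PRDX1 had 70.2, 68.7, 63.3 and 84.0 FPKM at 0 h, 80.8, 50.5, 93.1 and 84.6 FPKM at 24 h, and 76.9, 74.4, 87.4 and 94.2 FPKM at 48 h. Every group overlapped its 0 h group, and no comparison of PRDX1 was called, with log2 differences from 0 h of -0.27 at 24 h and 0.31 at 48 h in KO cells and 0.08 at 24 h and 0.22 at 48 h in WT cells (SE 0.21 each; limma adjusted p between 0.445 and 0.929). The 95% intervals of the values at 48 h ran from -0.14 to 0.75 in KO cells and from -0.23 to 0.66 in WT cells. A doubling of the row's value lay outside both. Whether the row measures PRDX1 alone is uncertain, given the overlap described next.

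MMACHC, a vitamin B12 trafficking gene on the other strand, overlaps 24.9% of the exonic length of PRDX1 (379 bases) and averaged 1028 FPKM, 12.87 times the mean of PRDX1. It averaged 1649 FPKM in KO and 1532 FPKM in WT at 0 h, 709 FPKM in KO and 807 FPKM in WT at 24 h, and 711 FPKM in KO and 763 FPKM in WT at 48 h. The row fell in all 4 comparisons with 0 h, by 1.22 (limma adjusted p = 4.4e-09) at 24 h and 1.22 (adjusted p = 1.8e-09) at 48 h in KO cells, and by 0.92 (adjusted p = 3.6e-07) and 1.01 (adjusted p = 4.0e-08) in WT cells on the log2 scale. What the shared stretch adds to PRDX1 was not tested.

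HMOX1, which splits heme into biliverdin, carbon monoxide and iron, had values that lay near the limit of detection and a log2 difference below 0 in all 4 comparisons with 0 h, none of them called (ENSG00000100292, chromosome 22, 35380361 to 35394214, plus strand). In KO cells HMOX1 had 6.46, 3.50, 4.0 and 3.82 FPKM at 0 h, 0, 1.29, 3.0 and 0 FPKM at 24 h, and 2.03, 0, 0 and 0 FPKM at 48 h. In WT cells HMOX1 had 6.67, 6.80, 1.54 and 5.11 FPKM at 0 h, 21.0, 0, 0 and 3.13 FPKM at 24 h, and 0, 1.33, 0 and 0 FPKM at 48 h. All 8 libraries at 0 h were above 0 and 6 of the 8 libraries at 48 h were listed at 0, and the groups at 48 h lay below their 0 h groups without overlap. The log2 differences at 48 h were -2.68 ± 0.96 in KO cells (limma adjusted p = 0.0849) and -2.84 ± 0.96 in WT cells (adjusted p = 0.0816). At 24 h they were -2.11 in KO cells (limma adjusted p = 0.246) and -1.23 in WT cells (adjusted p = 0.593), where library 0 alone had 21.0 FPKM. These values rest on 0 to 4.67 estimated fragments per library as group medians, so they depend on the constant of 0.5 FPKM added before the log. Without library 0 of KO at 48 h the KO difference was -3.27 and passed (adjusted p = 0.0485, in a range of 0.0453 to 0.187). In a fit of only the groups compared, the KO difference of -2.68 at 48 h passed too (limma adjusted p = 0.0453).

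Counted without a model, the libraries of 6 of the 9 genes at 48 h in KO cells lay wholly above those at 0 h, where 6.25% of all tested genes did so, and 1 gene, HMOX1, lay wholly below (8.97% of all tested genes). At 24 h in KO cells, 3 genes lay above (4.48%) and HMOX1 below (6.67%). In WT cells 5 genes lay above at 24 h (3.66%) and none below (5.55%), and at 48 h 5 lay above (5.01%) and HMOX1 below (6.69%). Between 48 h and 24 h limma called none of the 9 in either genotype, where 0.516% of all tested genes were called in KO cells and 0.122% in WT cells. In that comparison 3 of the 9 had an unadjusted p under 0.05 in KO cells (9.3% of all tested genes) and 0 in WT cells (7.23%). The 3 were TXN (log2 difference 0.74, limma adjusted p = 0.212), PRDX1 (0.57, adjusted p = 0.320) and TXNRD1 (0.45, adjusted p = 0.495), all higher at 48 h than at 24 h. With SLC7A11 these were also the 4 genes whose KO libraries at 48 h lay wholly above those at 24 h (2.43% of all tested genes), and none lay below (3.99%). In WT cells GSR alone lay above (1.91% of all tested genes) and none below (1.87%).

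**Figure D3:**
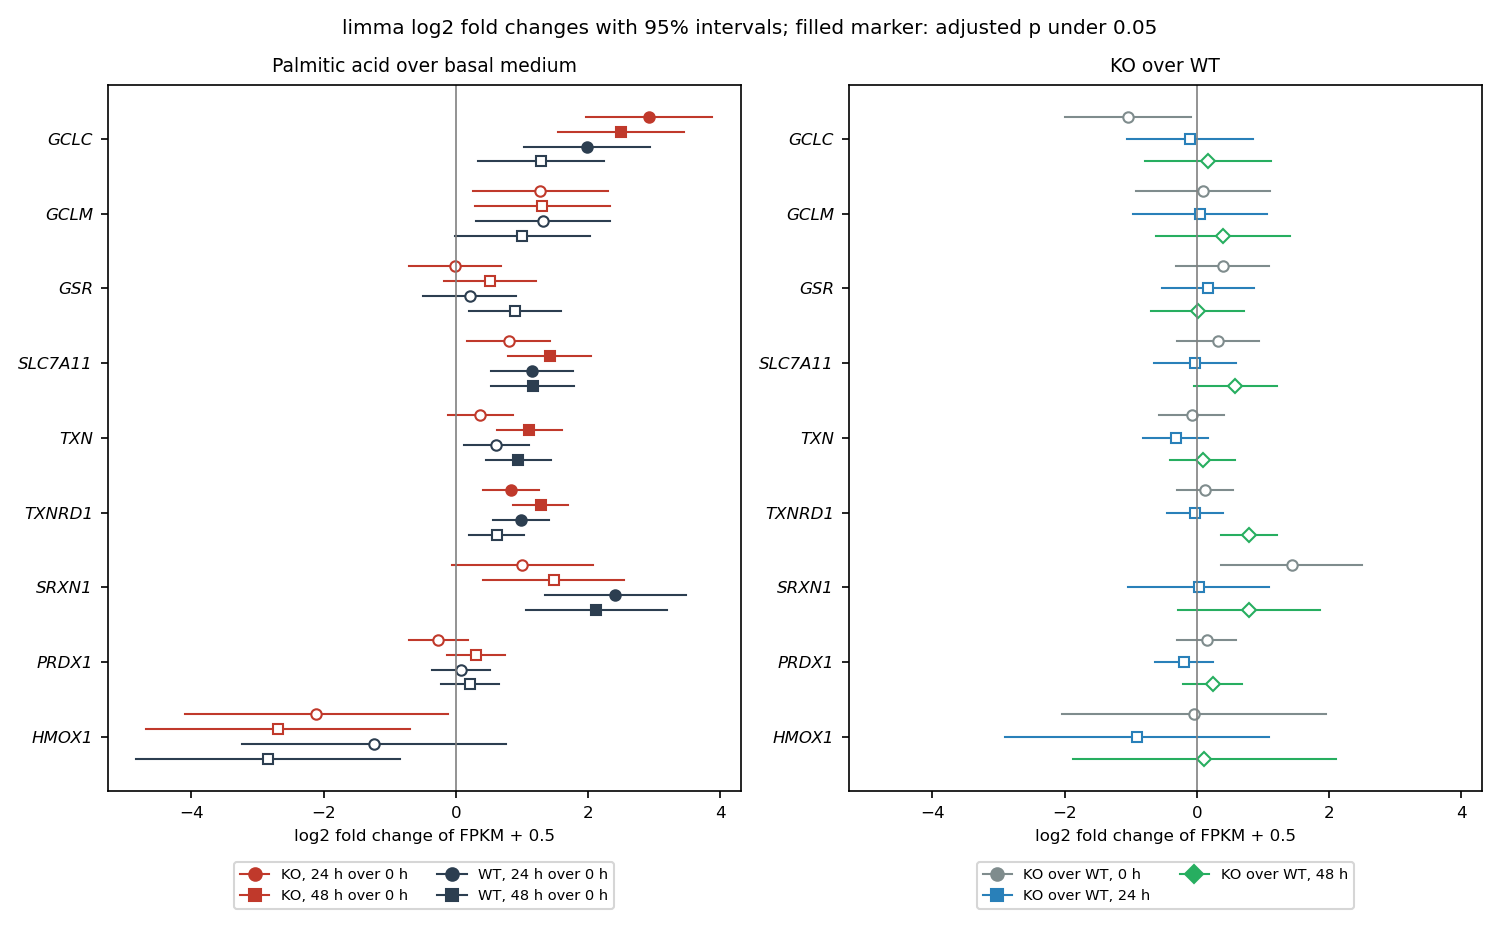
limma log2 fold changes of FPKM + 0.5 with 95% intervals for the 9 genes, on the left for 24 h and 48 h of palmitic acid over 0 h in KO (red) and WT (dark) cells, on the right for KO over WT at each time; filled markers have an adjusted p under 0.05. Filled markers appear on the left only, for GCLC, SLC7A11, TXN, TXNRD1 and SRXN1, and all of them lie above 0.

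Between the genotypes at a given time, limma called none of the 9 genes. At 0 h 0.0985% of all tested genes were called, at 24 h 0.0116% and at 48 h 0.0638%, and the 9 genes had 2, 0 and 1 genes at an unadjusted p under 0.05 (6.92%, 5.17% and 6.56% of all tested genes). The KO and WT libraries of all 9 genes overlapped at 0 h, where 1.41% of all tested genes lay wholly higher and 1.31% wholly lower in KO, and at 24 h, where 1.59% and 1.32% did. At 48 h all 9 differences were positive in KO over WT, as were 6 at 0 h and 3 at 24 h. The median at 48 h was 0.24 for the 9 genes and -0.003 over all tested genes. Some of the differences were small beside their SE, as for GSR (0.01 ± 0.34), TXN (0.09 ± 0.24) and HMOX1 (0.12 ± 0.96). TXNRD1 was the 1 gene whose libraries did not overlap at 48 h, where 1.74% of all tested genes lay wholly higher and 2.36% wholly lower in KO. TXNRD1 averaged 103.3 ± 8.25 FPKM in KO and 59.7 ± 6.33 FPKM in WT at 48 h (SD, n = 4 each). The log2 difference was 0.79 ± 0.20 (SE) with a 95% interval of 0.37 to 1.21, and limma did not call it (adjusted p = 0.231, in a range of 0.0661 to 0.615 over the alternatives). SRXN1 at 48 h averaged 18.1 ± 4.06 FPKM in KO and 10.5 ± 3.99 FPKM in WT (log2 0.79, limma adjusted p = 0.884), and SLC7A11 16.0 ± 2.36 FPKM in KO and 10.6 ± 2.43 FPKM in WT (log2 0.59, adjusted p = 0.796).

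At 0 h the genes with an unadjusted p under 0.05 were SRXN1 and GCLC, with opposite signs. SRXN1 averaged 6.39 ± 2.93 FPKM in KO and 2.80 ± 2.27 FPKM in WT, a log2 difference of 1.44 ± 0.52 (limma adjusted p = 0.491). Summed with AL121758.1 it was 0.57 (adjusted p = 0.755, in a range of 0.253 to 0.836), and without library 3 of WT at 0 h it was 0.69 (adjusted p = 0.745). GCLC averaged 9.79 ± 8.18 FPKM in KO and 19.6 ± 10.6 FPKM in WT, a log2 difference of -1.04 ± 0.46 (limma adjusted p = 0.665). The libraries overlapped for both genes.

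Whether the response to palmitic acid differed between KO and WT was tested as an interaction, and limma called none of the 9 genes at 24 h (0.00% of all tested genes called) or at 48 h (0.0522%). There were 0 of the 9 at an unadjusted p under 0.05 at 24 h (5.51% of all tested genes) and 1 at 48 h (6.6%). The 1 was TXNRD1, with a log2 rise larger by 0.66 ± 0.29 in KO than in WT at 48 h (95% interval 0.07 to 1.26, limma adjusted p = 0.697). For GCLC the rise was larger in KO by 0.94 ± 0.65 at 24 h (limma adjusted p = 0.906) and by 1.21 ± 0.65 at 48 h (adjusted p = 0.799). For SRXN1 the interaction at 24 h was -1.41 ± 0.73 (limma adjusted p = 0.902), and -0.54 with the AL121758.1 row added. The longer list of calls in KO cells at 48 h is therefore not shown to be a difference between the genotypes.

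Across the 24 libraries, SLC7A11 followed the other 8 genes most closely (Pearson r = 0.873 between its log2(FPKM + 0.5) and the mean of the others' z-scores). SRXN1, GCLM, TXNRD1 and TXN had r of 0.652 to 0.686, GSR 0.591, GCLC 0.541, PRDX1 0.269 and HMOX1 -0.55. Around the group means the values were lower for most genes, 0.347 for SLC7A11 and -0.19 for TXNRD1, and 0.661 for GSR. These are descriptions over libraries that share their group and its level of estimated fragments. The 6 genes most like the mean pattern of the 9, among 2977 candidates with a mean of at least 5 FPKM and no exon on the other strand, were ATF4 (r = 0.846), RHOU (0.839), PTGR1 (0.834), MT-CO2 (0.831), NUS1 (0.831) and, next in order, KLF4. ATF4, a transcription factor of the amino acid and stress responses, averaged 42.8 FPKM at 0 h, 87.8 FPKM at 24 h and 123 FPKM at 48 h in KO cells, and 54.9, 83.0 and 103.0 FPKM in WT cells. PTGR1, an NADPH-dependent reductase of reactive lipid carbonyls, averaged 3.26, 15.1 and 36.8 FPKM in KO cells and 5.01, 19.5 and 34.7 FPKM in WT cells at the same times.

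Of the 8 regulators listed, SQSTM1 was called higher in all 4 comparisons with 0 h and BACH1 in the KO comparisons, and the other 6 were not called. The shares of all tested genes called higher were 2.13% at 24 h and 3.40% at 48 h in KO cells, and 1.46% and 2.57% in WT cells. SQSTM1, the p62 adaptor that binds KEAP1, averaged 103.2 ± 29.5 FPKM at 0 h, 153 ± 4.39 FPKM at 24 h and 177 ± 10.7 FPKM at 48 h in KO cells, and 100.9 ± 18.7, 165 ± 20.7 and 163 ± 18.5 FPKM in WT cells (SD, n = 4 each). Its log2 rises were 0.61 at 24 h and 0.82 at 48 h in KO cells (limma adjusted p = 0.0425 and 0.00291) and 0.72 and 0.70 in WT cells (adjusted p = 0.0203 and 0.0159). The KO call at 24 h was lost when any 1 of 7 of the 8 libraries was left out, all except library 3 of KO at 0 h (adjusted p between 0.0555 and 0.161, in a range of 0.00632 to 0.187 over the alternatives). The WT calls were lost without library 1 of WT at 0 h (0.58 at 24 h, adjusted p = 0.0857, and 0.57 at 48 h, adjusted p = 0.0652), and at 24 h without library 1 of that time (0.63, adjusted p = 0.0676). The ranges over the alternatives were 0.00473 to 0.119 at 24 h and 0.00112 to 0.0885 at 48 h.

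BACH1, a repressor that competes with NRF2 at HMOX1 and other targets, averaged 0.999 ± 0.743 FPKM at 0 h, 6.46 ± 1.95 FPKM at 24 h and 6.68 ± 3.44 FPKM at 48 h in KO cells. In WT cells BACH1 averaged 2.47 ± 1.59, 2.72 ± 0.838 and 4.07 ± 0.930 FPKM. It rose in KO cells by 2.30 ± 0.52 (limma adjusted p = 0.00753) at 24 h and 2.29 ± 0.52 (adjusted p = 0.00442) at 48 h. The call at 24 h was lost in 1 of 18 alternatives (range 0.00483 to 0.0625). The KO libraries at 0 h had 0.392 to 1.91 FPKM, near the constant of 0.5 FPKM added before the log. The BACH1 differences in WT cells, 0.32 at 24 h (limma adjusted p = 0.831) and 0.84 at 48 h (adjusted p = 0.407), were not called. The difference between the genotypes in this response was not called either, at 1.98 ± 0.73 at 24 h (limma adjusted p = 0.883) and 1.45 ± 0.73 at 48 h (adjusted p = 0.768). NFE2L2 averaged 40.4 ± 9.48 FPKM at 0 h, 61.1 ± 14.1 FPKM at 24 h and 52.7 ± 4.71 FPKM at 48 h in KO cells, and 49.0 ± 7.88, 49.2 ± 7.51 and 52.6 ± 5.86 FPKM in WT cells. KEAP1 had 1.60 to 16.2 FPKM in the KO libraries and 0 to 17.1 FPKM in the WT libraries. CUL3, the ligase scaffold, averaged 39.4 FPKM in KO and 30.3 FPKM in WT at 24 h, and 32.3 and 32.9 FPKM at 0 h. Of the small MAF genes, MAFK had 41.4 FPKM in KO and 35.4 FPKM in WT at 24 h, MAFF 4.78 FPKM in KO and 8.93 FPKM in WT, and MAFG 4.27 FPKM in KO and 3.23 FPKM in WT. At 0 h MAFK had 34.7 FPKM in KO and 38.2 FPKM in WT, MAFF 5.67 and 7.70 FPKM, and MAFG 2.90 and 0.570 FPKM. The MAFG log2 differences from 0 h at 24 h were 0.75 in KO cells (limma adjusted p = 0.655) and 1.89 in WT cells (adjusted p = 0.170). SQSTM1, BACH1, NFE2L2, CUL3, MAFK and MAFG overlap exons of the other strand.

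Among 29 other genes known as NRF2 targets, all 29 tested, limma called 3 higher at 24 h and 6 at 48 h in KO cells, and 1 and 2 in WT cells, with none lower. Of all tested genes 2.13% and 3.40% were called higher in KO cells and 1.46% and 2.57% in WT cells at these times. The 1 of 29 in WT cells at 24 h was near that share. The median log2 fold change of this list was 0.23 at 24 h and 0.92 at 48 h in KO cells and 0.29 and 0.64 in WT cells. FTH1, the ferritin heavy chain that stores iron, averaged 512 ± 74.1 FPKM at 0 h, 804 ± 91.1 FPKM at 24 h and 1290.5 ± 138 FPKM at 48 h in KO cells, and 583 ± 175, 938 ± 195 and 944 ± 71.2 FPKM in WT cells. It rose in KO cells at 48 h by 1.34 ± 0.18 (limma adjusted p = 1.2e-05) and in WT cells at 48 h by 0.74 ± 0.18 (adjusted p = 0.0105). The WT call was lost without library 1 of WT at 0 h (0.57, adjusted p = 0.0519, in a range of 0.000170 to 0.135). At 24 h FTH1 was called in both genotypes (log2 0.66 in KO and 0.71 in WT cells), and each of these calls was lost when any of 5 of the 8 libraries was left out: libraries 1, 2 and 3 of KO at 0 h and 2 and 3 at 24 h, and libraries 1 and 2 of WT at 0 h and 0, 2 and 3 at 24 h (adjusted p between 0.0526 and 0.102 in KO and between 0.0541 and 0.0973 in WT cells). AKR1C2, an aldo-keto reductase, rose at 48 h by 1.83 ± 0.46 in KO cells (limma adjusted p = 0.0104) and by 1.73 ± 0.46 in WT cells (adjusted p = 0.0228). The WT call was lost without library 1 or 2 of WT at 0 h, or 2 or 3 of WT at 48 h (adjusted p between 0.0518 and 0.0833, in a range of 0.0162 to 0.104). CES1, a liver carboxylesterase, was listed at 0 in all 4 KO libraries at 0 h and averaged 5.18 ± 3.63 FPKM at 48 h in KO cells, and in WT cells it averaged 2.90 ± 2.27 FPKM at 0 h and 11.02 ± 6.28 FPKM at 48 h.

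NQO1, the quinone reductase commonly used as a readout of NRF2, was the 1 gene of the regulator, glutathione, thioredoxin, other target and antioxidant lists called between the genotypes. At 0 h it averaged 2.66 ± 0.716 FPKM in KO and 12.9 ± 5.08 FPKM in WT, a log2 difference of -2.05 ± 0.40 (limma adjusted p = 0.0371). At 24 h it averaged 8.37 ± 2.77 FPKM in KO and 21.3 ± 7.27 FPKM in WT, and at 48 h 13.7 ± 3.77 FPKM in KO and 22.4 ± 9.80 FPKM in WT. Within KO cells it rose by 2.16 ± 0.40 at 48 h (limma adjusted p = 0.000630). The call between the genotypes at 0 h was lost when any 1 of the 8 libraries was left out (log2 -2.15 to -1.81, adjusted p between 0.0508 and 0.122, in a range of 0.00331 to 0.243). NQO1 overlaps an exon of the other strand. So do FTH1, named above, and TXNDC17, TXNDC9 and SOD2, named below.

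In the wider glutathione list the share of genes called was near that of all tested genes. Of 37 tested of 38 other glutathione genes, limma called 1 higher in each KO comparison and at 48 h in WT cells, 0 at 24 h in WT cells, and none lower. By comparison, 2.13% and 3.40% of all tested genes were called higher at 24 h and 48 h in KO cells and 1.46% and 2.57% in WT cells. MGST1, a membrane-bound glutathione transferase, averaged 123 ± 10.7 FPKM at 48 h and 72.0 ± 24.5 FPKM at 0 h in KO cells (log2 0.82 ± 0.19, limma adjusted p = 0.00501). In WT cells it averaged 176 ± 28.3 FPKM at 48 h and 80.0 ± 10.6 FPKM at 0 h (log2 1.12 ± 0.19, adjusted p = 0.000418). The KO call was lost in 1 of 19 alternatives (range 9.4e-05 to 0.0627). CTH, which makes cysteine from cystathionine, averaged 9.61 ± 3.20 FPKM at 24 h in KO cells, and was at 0 to 2.22 FPKM there at 0 h (log2 3.07 ± 0.68, limma adjusted p = 0.00719). That call was lost in 1 of 19 alternatives (range 0.00209 to 0.0803).

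Of the 23 other thioredoxin system genes, 1 was called higher and 1 lower at 48 h in each genotype, 1 higher at 24 h in WT cells, and 0 at 24 h in KO cells. These counts were also near the shares of all tested genes, which at 48 h were 3.40% higher and 6.42% lower in KO cells, and 2.57% and 4.22% in WT cells. PRDX5, a peroxiredoxin of mitochondria and peroxisomes, averaged 112 ± 14.7 FPKM at 48 h and 61.6 ± 19.2 FPKM at 0 h in KO cells (log2 0.91 ± 0.27, limma adjusted p = 0.0290). That call was lost without library 0 of KO at 0 h (0.65, adjusted p = 0.124) or without library 1, 2 or 3 of KO at 48 h (adjusted p between 0.0530 and 0.0779), in a range of 0.00372 to 0.124 over the alternatives. TXNDC17, a thioredoxin-related protein, fell at 48 h to 49.5 ± 5.38 FPKM in KO cells, against 73.1 ± 8.89 FPKM at 0 h, and to 48.6 ± 8.86 FPKM in WT cells, against 77.9 ± 5.10 FPKM (log2 -0.56 and -0.69, limma adjusted p = 0.0310 and 0.0107). Under quantile normalization those values were -0.26 in KO cells (limma adjusted p = 0.356) and -0.48 in WT cells (adjusted p = 0.0755), and the KO call was also lost without library 0 or 2 of KO at 0 h, or 2 or 3 of KO at 48 h (range 0.0182 to 0.356). TXNDC9 was the 1 gene of this list called higher in WT cells, with 10.4, 11.1, 21.2 and 18.3 FPKM at 48 h and 7.86, 0, 2.78 and 6.59 FPKM at 0 h (log2 2.27 ± 0.60, limma adjusted p = 0.0216). The call was lost without library 1 of WT at 0 h (1.38, adjusted p = 0.0598), or 2 or 3 of WT at 48 h, in a range of 0.00842 to 0.245. At 24 h it was 2.10 ± 0.60 (limma adjusted p = 0.0490). Among other alternatives it was lost when library 1 or 2 of WT at 0 h or any 1 library of WT at 24 h was left out (adjusted p between 0.0581 and 0.148, in a range of 0.0204 to 0.351).

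Of 7 tested of 8 other antioxidant enzymes, SOD2, the mitochondrial superoxide dismutase, was the 1 called, in KO cells at 48 h. In that comparison 6.42% of all tested genes were called lower. SOD2 averaged 125 ± 14.8 FPKM in KO cells at 48 h and 220.2 ± 58.5 FPKM at 0 h, a log2 change of -0.79 ± 0.22 (limma adjusted p = 0.0253). The value was -0.61 (adjusted p = 0.0723) with median-of-ratios rescaling and -0.35 (adjusted p = 0.352) with quantile normalization. The call was lost without library 1 or 2 of KO at 0 h, or 2 or 3 of KO at 48 h (adjusted p between 0.0656 and 0.105, in a range of 0.0134 to 0.352).

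**Figure D4:**
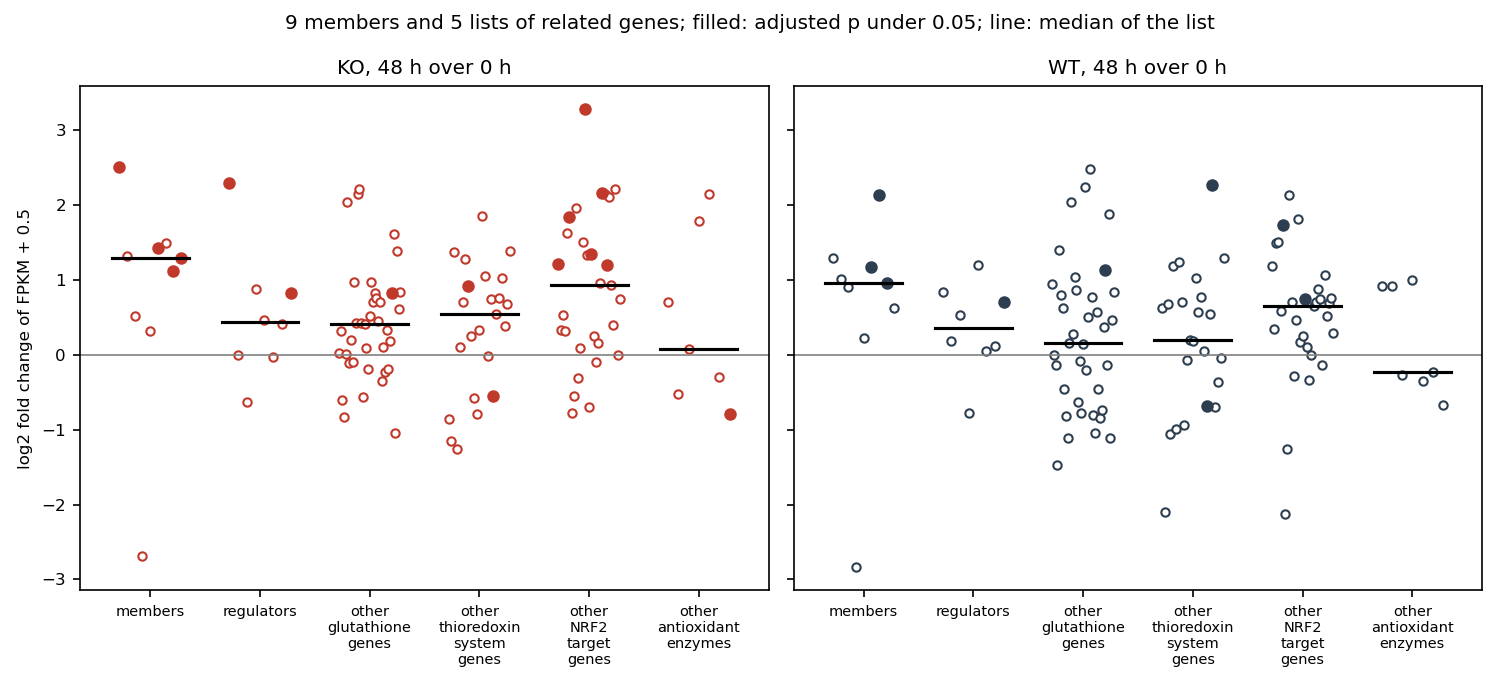
limma log2 fold changes of FPKM + 0.5 at 48 h of palmitic acid over 0 h (y axis), in KO cells (left) and WT cells (right), for the 9 genes and 5 lists of related genes (x axis); points are genes, filled where the adjusted p is under 0.05, and the line is the median of the list. The median of the 9 genes is 1.28 in KO and 0.95 in WT cells, and that of the 29 other NRF2 targets 0.92 and 0.64.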

How the data were processed

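RNA of 24 libraries, made with a directional Illumina mRNA kit and sequenced on a NovaSeq per the labels, was quantified by the authors as FPKM per Ensembl gene, and that table was deposited. Per the submitters' processing notes, STAR, Cufflinks, Cuffdiff and the build GRCh38 were used; versions and strand setting are not given in them. Of 58024 IDs, 45 chromosome Y copies, all at 0, were left out, and 57375 matched GENCODE release 29 without their version number. Fragment totals were read from the smallest FPKM steps.

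Values were taken as log2(FPKM + 0.5) for genes whose mean reached 0.5 FPKM, with no rescaling between libraries. One limma 3.58.1 fit (R 4.3.3, variance trend, 18 residual degrees of freedom) of 6 group means gave 11 comparisons, each tested in both directions with Benjamini-Hochberg adjustment over 17252 genes and a threshold of 0.05. Fold changes on this scale understate low genes. The fit was also run on simulated counts with the same kind of spread for all genes. Those counts had no overlapping rows and no missing estimates, so that run says nothing of such features. Tables and figures used Python 3.11.15, pandas 2.3.3, numpy 2.4.6 and matplotlib 3.10.9.

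The members and lists were chosen with earlier results of these data known. All 9 members and all 8 regulators were named, and from each other list up to 4 called genes with the largest change per comparison. Alternatives were other constants, floors, scalings and variance models, a replicate block, and leaving out each library. Libraries with the same number did not deviate together (correlations -0.125 to 0.144).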

Additional observations from a re-analysis of the deposited data

Results flagged for a closer look

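In 54 groups of 4 libraries (9 genes, 6 groups), 7 held a library far from the other 3. Chance gives about 1 in 20 where values spread normally, which FPKM need not do, so no excess is shown. For GCLM the flagged libraries were library 3 of WT at 24 h, with 48.32 FPKM, and library 0 of KO at 48 h, with 32.03 FPKM. For SRXN1 it was library 2 of WT at 24 h, with 16.61 FPKM. For HMOX1 they were library 0 of KO at 0 h (6.461 FPKM), library 0 of WT at 24 h (21.0 FPKM), library 0 of KO at 48 h (2.034 FPKM) and library 1 of WT at 48 h (1.333 FPKM). In both groups at 48 h the other 3 libraries were listed at 0, so the remaining library was flagged whatever its value.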

How the results depend on the processing

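In a fit of only the groups compared, 0 members were called in WT cells at 24 h and at 48 h. In KO cells that fit kept all calls of members and at 48 h added SRXN1 (higher) and HMOX1 (lower). Without the variance trend 1 was called in KO cells at 24 h. Leaving out 1 library gave 2 to 4 called members in WT cells at 24 h and at 48 h, 2 each time in KO cells at 24 h, 4 to 5 in KO cells at 48 h, and 0 in the other comparisons. A replicate block left 4, 3, 2 and 4 members called in WT cells at 24 h and 48 h and in KO cells at 24 h and 48 h. The numbers share no stated source, and 7 of 24 libraries correlated best with their own number. Of 1550 single-gene values under alternatives, 1388 kept direction and side of the threshold, 148 lost a call, 12 gained one, and 2 reversed: SLC7A11-AS1 in KO cells at 48 h, at 0.16 under quantile normalization, for which the cause was not tested, and PRDX1 in WT cells at 24 h, never called, at -0.020 to 0.27 on leaving out 1 library.

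Calls over all genes moved more. At 24 h in WT cells 701 genes were called, 355 in a fit of only those groups and 334 without the variance trend. At 48 h in WT cells these were 1171, 591 and 750, and at 24 h in KO cells 973, 617 and 639. Among genes with no exon on the other strand, fewer being tested, 107, 234, 199 and 388 were called in WT cells at 24 h and 48 h and KO cells at 24 h and 48 h (1695 of all genes in the last). Between 48 h and 24 h, 89 were called in KO cells, 10 without the trend and 7 among genes with no such exon. In WT cells that count was 21, against 12 with only those groups, 4 without the trend, 36 with the replicate block, 43 with quantile normalization and 11 among genes with no such exon.

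Between KO and WT 17 were called at 0 h, 8 without the trend and 7 among genes with no such exon. At 24 h 2 were called, against 13 with only those groups, 5 with either rescaling, 3 with a constant of 0.1 or no floor, 1 with a constant of 1 or among genes with no such exon, and 0 with the block. At 48 h 11 were called, against 21 with median-of-ratios rescaling, 26 with quantile normalization, 27 with the block, 17 with only those groups, 7 with a constant of 0.1, 4 without the trend and 3 among genes with no such exon. The interaction had 0 calls at 24 h, 2 with only those groups, and 9 at 48 h, 4 without the trend.

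Higher and lower calls in KO cells at 48 h were 587 and 1108. They were 813 and 847 with median-of-ratios rescaling, which shifted the median of all genes by 0.106, and 747 and 677 with quantile normalization. In WT cells at 48 h the splits were 443 and 728, 592 and 585, and 544 and 390 in the same order of settings. At 24 h they were 368 and 605, 467 and 495, and 463 and 357 in KO cells, and 252 and 449, 314 and 362, and 296 and 248 in WT cells. HMOX1 and SRXN1 at 0 h rest on few estimated fragments per library.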
